A study of Mus musculus with 12 samples.

Results

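Memory B cells (MemB) and B2 cells of the peritoneal cavity (PerC) of mice that carry an active GPR34 knock-in were compared across all genes. B2 cells are the conventional B cells that circulate through lymphoid follicles. The members of the comparison were chosen by their labels for genotype and sorted cell type, and were 6 of the 12 RNAseq samples of the study, 3 KI MemB and 3 KI B2. KI mice were of the genotype Cd21-Cre R26 LSL-Gpr34 Q340X-IRES-GFP. In them a Cre recombinase driven by Cd21 removes a stop cassette (LSL) in the Rosa26 locus, after which a GPR34 truncated at its tail, a gain-of-function form, is made together with GFP. GPR34 is a G protein-coupled receptor for lysophosphatidylserine. Both KI groups carried the allele, so it is shared and not what was compared. B2 were sorted as IgD+IgM+ and MemB as IgD-IgM- cells, a gate that leaves out memory cells that keep IgM. GFP is not named as part of the gate, so each sample may also hold cells in which Cre had not acted. The other 6 samples were the same cell types from control mice, 3 Control B2 and 3 Control MemB, and were used only for values set beside those of the KI mice. The study's methods give a single age range for all its mice and none for these samples.

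A naive follicular B cell carries IgM and IgD of the same specificity, made by alternative processing of a long transcript across Ighm and Ighd. After activation, class switch recombination deletes the Ighm and Ighd exons from the expressed allele and joins the variable region to a downstream constant gene of the IgG, IgE or IgA class. Memory B cells are long-lived progeny of activated cells. They are known for costimulatory ligands that naive cells hold at low levels, for changed homing receptors, and for fast differentiation into plasma cells. In the peritoneal cavity they share the space with B2 cells and with B-1 cells, an innate-like population.

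The samples held between 29900558 and 39732124 counts in KI B2 and between 30935837 and 32234792 in KI MemB, with 18046 to 18656 and 17301 to 18202 genes detected. Ribosomal RNA and mitochondrial genes took 35.4% to 38.4% of the counts in KI B2 and 34.5% to 37.5% in KI MemB. The spread between replicates was wide, at a biological coefficient of variation of 79.9% common to all genes. Log2 CPM (counts scaled to library size) correlated across genes at 0.770 to 0.811 between replicates. Replicate 3 of KI B2 and of KI MemB had 94668 and 95858 Xist counts and 197 and 203 counts from Y chromosome genes, while the other 4 samples had 1289 to 2175 and 6649 to 9879, so that the mix was the same in both groups. B cell markers summed to between 3647 and 3984 CPM in KI B2 and between 3536 and 3989 CPM in KI MemB, and 0 of 8 were called by edgeR, DESeq2 or voom. Ms4a1 and Cd79a overlapped between the groups, while Pax5, Ebf1 and Blk lay lower in all KI MemB samples (unadjusted p under 0.05, log2 fold changes of -0.45, -0.65 and -0.56), and 0 of the list were higher at that p. T cell markers summed to 93.0 to 139 CPM in KI B2 and 55.5 to 90.2 CPM in KI MemB. Of 12 tested, 3 lay below and 0 above in all 3 KI MemB samples, at a median log2 fold change of -1.01. NK cell markers summed to 3.93 to 23.4 CPM in KI B2 and 1.07 to 7.34 CPM in KI MemB. The 2 tested both lay below in all 3 KI MemB samples, at a median of -3.25. Neither list held a call. Macrophage and monocyte markers summed to 19.5 to 61.9 CPM in KI B2 and 58.5 to 135 CPM in KI MemB, most of it from Itgam, which B-1 cells also express, while Cd14, C1qa, C1qc, Mertk, Fcgr1 and Gata6 were at 0 in every sample. Of 5 tested, 0 were called, and 1 lay above and 0 below in all 3 KI MemB samples. At an unadjusted p under 0.05, 2 were higher and 0 lower (695 and 606 of 13246 over all genes), and the median log2 fold change was -0.05. Mast cell markers stood apart in 1 sample, KI B2 replicate 3, with 78.5 CPM, of which Cpa3 gave 25.3 and Cma1 16.1, while KI MemB held 0.88 to 1.89 CPM. Neutrophil, stromal and erythroid markers were at or near 0. In sorted bulk samples, fewer cells of a type and less RNA per cell cannot be told apart.

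Of 56941 genes in the table, 13246 passed a filter on low counts and were tested. A gene was called when edgeR's quasi-likelihood test gave a Benjamini-Hochberg adjusted p under 0.05 and a log2 fold change (KI MemB over KI B2) above 1 or below -1. Calls are edgeR's where no other tool is named. By this rule 55 genes were called (0.415% of those tested). Of these, 38 rose (0.287%) and 17 fell (0.128%) in KI MemB. All 3 KI MemB samples lay above all 3 KI B2 samples, or below them, for each of the 55 genes. A call with 3 samples per group favours such separation, so this count is not further support for the calls. Across all genes tested, 7.65% lay above and 7.62% below in this way, 6906 had a higher mean in KI MemB, and the median log2 fold change was 0.04. At an unadjusted p under 0.05 there were 695 genes higher and 606 lower. The call held in every fit that left out 1 sample for 14 genes, among them Igha, Ighg1, Ighg2b, Ighg2c, Ighg3, Jchain, Ighm, Ighd, Cxcr3, Itga4, Cd80, Bhlhe41 and St8sia6. The other 41 lost it in at least 1 of the 6 such fits, 38 of them in 3 or more, and the number of calls dropped from 55 to 15 without KI B2 replicate 2.

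**Figure D1:**
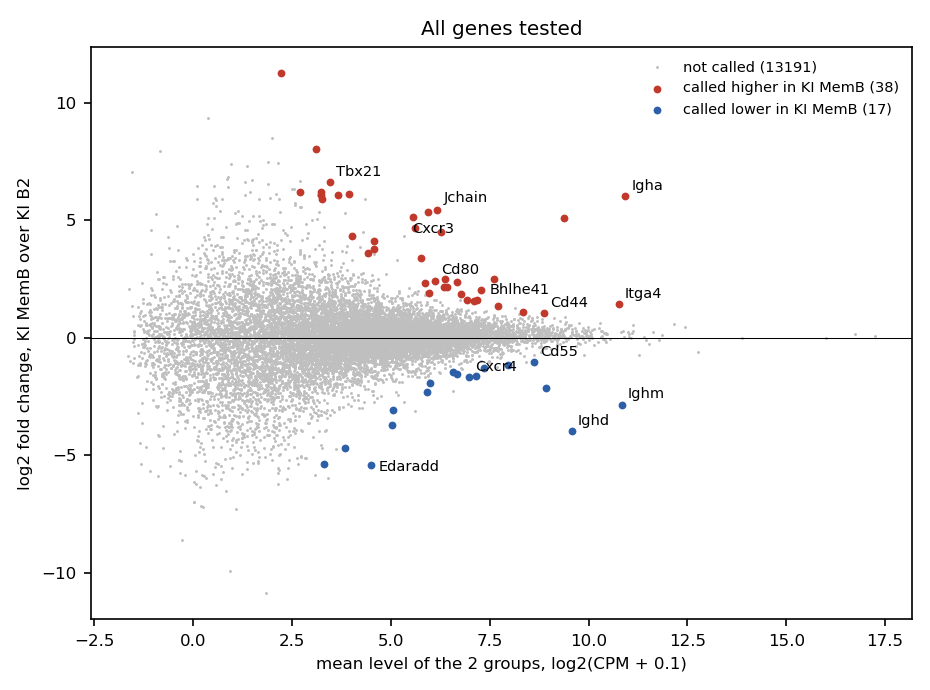
Log2 fold change of KI MemB over KI B2 (vertical) against the mean level of both groups as log2(CPM + 0.1) (horizontal) for the 13246 genes tested, 1 point per gene. The 38 genes called higher are red and the 17 called lower are blue. The calls at high levels include Igha, Ighm, Ighd and Itga4, and genes of low level were called only at large differences.

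The gate was set on surface IgM and IgD, so Ighm and Ighd transcripts check the sort and are not a finding. Ighd, the IgD constant gene at chr12:113370224-113379944 (GRCm39, minus strand), stood at 1352, 1329 and 1609 CPM in KI B2 and at 66.9, 104 and 102 CPM in KI MemB. That is 15.8-fold lower in KI MemB, with a log2 fold change of -3.98 ± 0.21 (SE) and an adjusted p of 1.24e-08. Ighm, the IgM constant gene at chr12:113382178-113386350 (minus strand), stood at 2937, 3052 and 3665 CPM in KI B2. It was at 299.5, 477 and 567 CPM in KI MemB, with a log2 fold change of -2.84 ± 0.20 (SE, adjusted p = 9.38e-07). Both genes separated the groups completely, and both kept a level well above 0 in KI MemB. Gpr34, which both groups overexpress from the allele, was at 103, 115 and 102 CPM in KI B2 and at 133, 172 and 155 CPM in KI MemB. The groups did not overlap, but the gene was not called (log2 fold change 0.52 ± 0.26, SE, adjusted p = 0.528).

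The constant genes of the switched classes rose in KI MemB. The IgD-IgM- gate takes class-switched B cells, so a rise of these genes as a whole also checks the sort. Which of the switched classes rose was not set by the gate. Igha, the IgA constant gene at chr12:113218450-113223856 (minus strand), had the smallest p of all genes tested. It stood at 66.4, 58.5 and 49.2 CPM in KI B2 and at 4325, 2405 and 4744 CPM in KI MemB. The rise was 65.9-fold, a log2 fold change of 6.04 ± 0.25 (SE, adjusted p = 7.37e-10), and the lowest KI MemB sample was far above the highest KI B2 sample. Ighg2b, of the IgG2b class, was at 66.3, 28.2 and 19.8 CPM in KI B2 and at 1802, 1169 and 940.4 CPM in KI MemB, with a log2 fold change of 5.10 and an adjusted p of 0.00332. Ighg2c rose from 2.40 to 2.94 CPM in KI B2 to 88.5 to 94.4 CPM in KI MemB, with a log2 fold change of 5.12 (adjusted p = 1.83e-05). Ighg1 rose by a log2 fold change of 4.66 (adjusted p = 0.000111) and Ighg3 by 4.49 (adjusted p = 0.000119). Ighe, the IgE constant gene, did not pass the filter on low counts in enough samples to be tested, with at most 2 counts in a KI B2 sample and 95 in a KI MemB sample.

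Of all counts on the heavy chain constant genes tested, KI B2 had 1.24% ± 0.29 on Igha and KI MemB had 62.6% ± 7.72 (SD, n = 3 each, as for the shares that follow). The IgG genes together held 1.11% ± 0.68 in KI B2 and 27.9% ± 6.37 in KI MemB, most of it Ighg2b with 22.3% ± 7.37. Ighm fell from 67.6% ± 1.24 to 7.84% ± 3.20, and Ighd from 30.1% ± 0.39 to 1.61% ± 0.68 of these counts. These shares are of counts and are not per length, so they compare a gene between groups and not genes with each other. The Igha share of the KI MemB samples was 64.1%, 54.3% and 69.5%, and their IgG2b share was 26.7%, 26.4% and 13.8%. Jchain, whose product links IgA or IgM into polymers, stood at 2.52, 3.64 and 3.62 CPM in KI B2 and at 153, 73.8 and 197 CPM in KI MemB. It rose 43.3-fold (log2 fold change 5.43 ± 0.47, SE, adjusted p = 1.19e-05). Of 139 variable, diversity and joining segments tested, 0 were called by edgeR or voom. At an unadjusted p under 0.05, 8 were higher and 12 lower (695 and 606 of 13246 over all genes). DESeq2 called 3 higher and 6 lower (214 and 187 of 13246 over all genes).

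**Figure D2:**
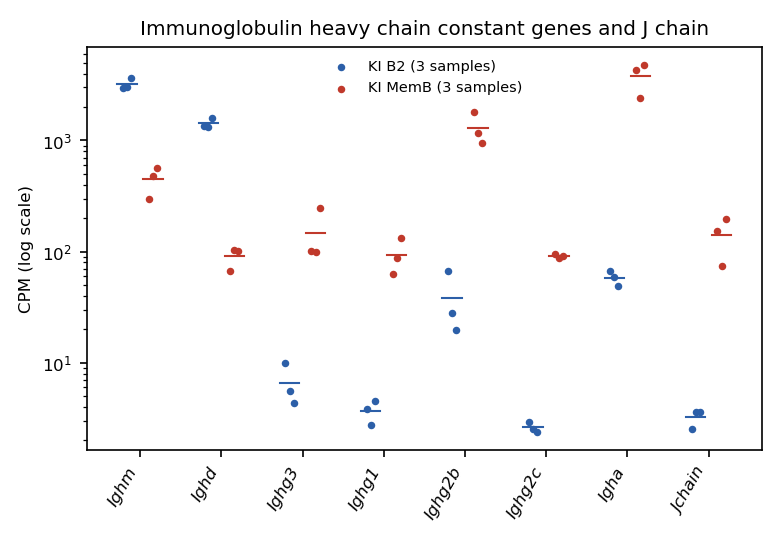
CPM on a log scale of the heavy chain constant genes and Jchain, with 3 KI B2 samples in blue and 3 KI MemB samples in red, a point per sample and a line at the mean. Ighm and Ighd are lower and the other 6 genes higher in each KI MemB sample than in each KI B2 sample.

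Homing and adhesion receptors differed in both directions. Cxcr3 (chrX:100775141-100777875, minus strand), the receptor for interferon-induced chemokines, was at 3.13, 1.65 and 4.04 CPM in KI B2 and at 109, 154 and 97.9 CPM in KI MemB. It rose 40.9-fold (log2 fold change 5.35 ± 0.48, SE, adjusted p = 1.76e-05). Itga4 (chr2:79085660-79163467, plus strand), the alpha 4 integrin chain that binds VCAM-1 and fibronectin, stood at 1010.1, 945 and 854 CPM in KI B2 and at 2554, 2515 and 2535 CPM in KI MemB. The rise was 2.71-fold and the KI MemB samples lay very close together (log2 fold change 1.44 ± 0.13, SE, adjusted p = 1.83e-05). Cd44, the hyaluronan receptor, rose 2.08-fold, from 248 to 394 CPM in KI B2 to 548 to 680.4 CPM in KI MemB (adjusted p = 0.0273).

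Cxcr4, the receptor for CXCL12, which holds B cells in bone marrow and in follicular dark zones, fell 3.22-fold, from 123 to 229 CPM in KI B2 to 49.0 to 79.5 CPM in KI MemB (adjusted p = 0.0261). Of 22 chemoattractant and positioning receptors tested, Cxcr3 and Cxcr4 were the calls of edgeR (0.287% of all genes called higher and 0.128% lower), and the median log2 fold change was -0.08. DESeq2 called Cxcr3, Ccr6 and Ccr9 higher and Cxcr4 and Cnr2 lower (214 and 187 of 13246 over all genes). Ccr6, which responds to CCL20, was at 21.8, 31.3 and 40.2 CPM in KI B2 and 125, 61.0 and 78.2 CPM in KI MemB (log2 fold change 1.505, adjusted p = 0.157 by edgeR and 0.0102 by DESeq2). Ccr7, the receptor that leads cells to T zones, overlapped between the groups with a log2 fold change of -0.48. Of 21 integrin and adhesion genes, Itga4 and Cd44 rose and 1 fell (0.287% and 0.128% of all genes), with a median of -0.03. Itgb7, a partner chain of Itga4, had a log2 fold change of -0.06.

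Of 26 genes of the naive follicular state tested, 4 fell and 0 rose by edgeR, and 9 fell and 0 rose by DESeq2. By both tools 1 of these was Ighd, whose fall the gate fixed. The median log2 fold change was -0.59 beside 0.04 over all genes, with 12 lower and 1 higher in all 3 KI MemB samples. Over all genes tested, edgeR called 0.128% lower and DESeq2 187 of 13246, and 7.62% lay lower and 7.65% higher in all 3. The called genes included Ighd (above), Cd55 and Zfp318. Zfp318, whose product is needed to make the IgD transcript, stood at 228, 237 and 225 CPM in KI B2 and at 62.6, 100.1 and 120.3 CPM in KI MemB (log2 fold change -1.29, adjusted p = 0.0479). Cd55, which shields cells from complement, stood at 499, 610.1 and 487 CPM in KI B2 and at 194, 248 and 335 CPM in KI MemB (log2 fold change -1.04, adjusted p = 0.0462). Gm15675, an entry beside Cd55, was called lower too (log2 fold change -1.56), and unstranded reads there cannot be assigned with certainty. Fcer2a, which encodes CD23, missed the threshold with 249 to 322 CPM in KI B2 and 77.3 to 154 CPM in KI MemB (log2 fold change -1.24 ± 0.26, SE, adjusted p = 0.0514). Cr2, which encodes CD21, had a log2 fold change of -0.94 (adjusted p = 0.296). Bach2, a repressor of plasma cell fate, was at -0.46 and overlapped between the groups.

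Among memory surface and costimulatory genes, Cd80 and Cd44 rose and 0 fell of 17 tested (0.287% and 0.128% of all genes), with a median log2 fold change of 0.45 (0.04 over all genes). Cd80 (chr16:38275923-38316697, plus strand) encodes a ligand of CD28 by which B cells costimulate T cells. It was at 19.8, 26.7 and 18.2 CPM in KI B2 and at 116, 134 and 98.2 CPM in KI MemB, 5.37-fold higher (log2 fold change 2.42 ± 0.36, SE, adjusted p = 0.00469). DESeq2 called these and Plxnb2, all higher (214 of 13246 over all genes). Among genes used to mark subsets of memory cells, Nt5e, which encodes CD73, had a log2 fold change of 1.12 (adjusted p = 0.688) and Pdcd1lg2, which encodes PD-L2, of 0.29 (adjusted p = 0.966), and both overlapped between the groups and were called by neither edgeR nor DESeq2. Fas, a death receptor, was at 34.2, 13.3 and 24.8 CPM in KI MemB against 10.6, 0.40 and 1.61 CPM in KI B2 (log2 fold change 2.52, adjusted p = 0.397). In the TNF receptor family 1 of 11 genes was called higher by edgeR and 0 lower (0.287% and 0.128% of all genes). This was Tnfrsf8, which encodes CD30, at 40.3, 12.01 and 23.6 CPM in KI B2 and 155, 127 and 141 CPM in KI MemB (log2 fold change 2.48, adjusted p = 0.011). DESeq2 called Tnfrsf8 higher and Tnfrsf18 lower (214 and 187 of 13246 over all genes).

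Of 24 transcription factors linked to memory cells, Bhlhe41 and Tbx21 rose and 0 fell, with a median log2 fold change of 0.52. Over all genes 0.287% rose, and 7.65% lay above in all 3 KI MemB samples. Bhlhe41 (chr6:145803969-145811430, minus strand), a basic helix-loop-helix repressor, was at 66.1, 53.2 and 62.0 CPM in KI B2 and at 228, 268 and 252 CPM in KI MemB. It rose 4.12-fold with little spread in either group (log2 fold change 2.04 ± 0.25, SE, adjusted p = 0.000452). Tbx21 (chr11:96988897-97006158, minus strand) encodes T-bet, which drives IgG2 switching and Cxcr3 transcription in lymphocytes. It was at 0.29, 0.20 and 0.16 CPM in KI B2 and at 10.6, 48.0 and 6.33 CPM in KI MemB (log2 fold change 6.63 ± 1.17, SE, adjusted p = 0.0167). KI MemB replicate 2 lay well above the other KI MemB samples. Without that sample, the log2 fold change of Tbx21 was 5.28 and the gene was not called (adjusted p = 0.242), and it lost its call in 4 of the 6 fits that left out 1 sample. Batf3, an AP-1 family factor that was not on the list, was at 0.18 to 0.39 CPM in KI B2 and at 29.3, 15.05 and 11.9 CPM in KI MemB (log2 fold change 5.92, adjusted p = 0.0224). Zbtb32, Zbtb20 and Runx2 were higher in every KI MemB sample than in every KI B2 sample without a call by edgeR, with log2 fold changes of 1.17, 0.84 and 3.52 and adjusted p of 0.217, 0.148 and 0.107. DESeq2 called Runx2 (adjusted p = 0.000356) and Cbfa2t3 besides Bhlhe41 and Tbx21, all higher (214 of 13246 over all genes). Bcl6, the regulator of germinal center cells, was at -1.64 (adjusted p = 0.358) with overlapping groups.

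Bhlhe41 protein belongs to a family that binds the E-box CACGTG, a sequence that reads the same on both strands. The letters were looked for in RefSeq promoter windows (GRCm38.p6, 250 bases before to 50 after the gene start). Of the 38 genes called higher, 26 had a window and 4 of them (15.4%) held the E-box, beside 12% of the genes tested and 7.15% of all 32851 windows. Of the 17 called lower, 12 had a window and 1 (8.33%) held it. The share in the called genes was thus near the background. The matches of 3 called-higher genes and of the called-lower gene are shown 5′ to 3′ on the gene's strand with the E-box in capitals, since Bhlhe41 was itself among the genes that held one.
Bhlhe41 (chr6:145865556-145865585, minus strand): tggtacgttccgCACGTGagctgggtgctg
Tnfrsf8 (chr4:145315266-145315295, minus strand): gagtcatctctgCACGTGgtggccccttct
D430019H16Rik (chr12:105453810-105453839, plus strand): gttgggagtggtCACGTGgaggggcgccgc
Afap1 (chr5:35893157-35893186, plus strand): ctgagcttagtcCACGTGggcgctgagccc

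**Figure D3:**
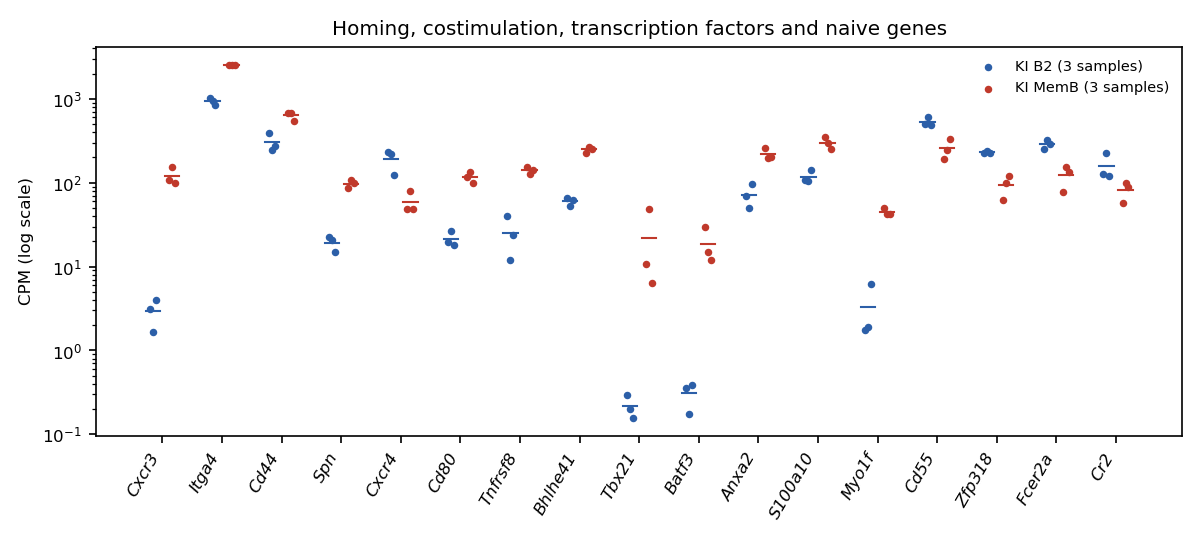
CPM on a log scale of 17 homing, adhesion, costimulatory, transcription factor, cytoskeletal and naive follicular genes, with 3 KI B2 samples in blue and 3 KI MemB samples in red, a point per sample and a line at the mean. Cxcr4, Cd55, Zfp318, Fcer2a and Cr2 are lower in KI MemB and the others higher, and Fcer2a and Cr2 were not called.

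B-1 cells are also found in the peritoneal cavity and have genes in common with memory cells. Of 20 B-1 genes tested, Spn and Bhlhe41 rose and 0 fell by edgeR, with a median log2 fold change of 0.38 and with 6 higher and 2 lower at an unadjusted p under 0.05. Over all 13246 genes 0.287% rose, and 695 were higher and 606 lower at that p. DESeq2 called 3 higher and 2 lower (214 and 187 of 13246 over all genes), the latter Siglecg and Dnase1l3. Spn, which encodes CD43, a surface sialoglycoprotein of B-1 and activated cells, was at 22.4, 20.5 and 14.8 CPM in KI B2 and at 85.5, 107 and 100.1 CPM in KI MemB (log2 fold change 2.34, adjusted p = 0.011). Cd5, which marks B-1a cells, was at 5.49, 1.45 and 2.68 CPM in KI B2 and at 0.17, 2.01 and 0.13 CPM in KI MemB (log2 fold change -2.05, adjusted p = 0.742). Itgam, which encodes CD11b, was at 11.5, 19.9 and 52.4 CPM in KI B2 and at 44.9, 92.9 and 99.1 CPM in KI MemB (log2 fold change 1.499, adjusted p = 0.321). Siglecg and Dnase1l3 had log2 fold changes of -1.07 and -2.42, with adjusted p of 0.0693 and 0.0751. The study gates B-1 cells as IgD-IgM+, which neither gate used here takes in, and the part of B-1 cells in these values was not tested.

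In the annexin, S100 and actin-linked list, 3 of 30 genes rose (0.287% of all genes) and 0 fell, with a median log2 fold change of 0.44, and 14 were higher at an unadjusted p under 0.05 (695 of 13246 over all genes). Anxa2 and S100a10, whose products form a membrane-binding complex, rose by log2 fold changes of 1.60 (adjusted p = 0.0207) and 1.35 (adjusted p = 0.0137). Anxa2 was at 49.5 to 97.5 CPM in KI B2 and 195 to 256 CPM in KI MemB, and S100a10 at 106 to 140.3 CPM in KI B2 and 249.7 to 352 CPM. Myo1f, an unconventional myosin of immune cells, was at 1.74, 1.91 and 6.15 CPM in KI B2 and at 49.8, 41.8 and 42.0 CPM in KI MemB (log2 fold change 3.77, adjusted p = 0.0224). S100a6 and Vim did not separate the groups, with log2 fold changes of -0.03 and -0.06. Outside the list, Fscn1, which bundles actin, rose from 0.23 to 0.45 CPM in KI B2 to 55.0, 8.84 and 10.99 CPM in KI MemB (log2 fold change 6.09, adjusted p = 0.0167). Without KI MemB replicate 1, Fscn1 was at 4.77 and not called (adjusted p = 0.311), and it lost its call in 4 of the 6 fits that left out 1 sample.

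Plasma cell and secretion genes gave 1 call among 22 tested, Jchain, with a median log2 fold change of 0.37 and 0 called lower (0.287% of all genes called higher and 0.128% lower). Of these genes 19 had a higher mean in KI MemB (6906 of 13246 over all genes), 7 lay above and 0 below in all 3 KI MemB samples (7.65% and 7.62% of all genes), and 5 were higher and 0 lower at an unadjusted p under 0.05. DESeq2 called 3 higher, Jchain, Derl3 and Tent5c (214 of 13246 over all genes), and voom 0. Prdm1 and Xbp1, the transcription factors of the secretory program, had log2 fold changes of 0.59 (adjusted p = 0.951) and -0.28 (adjusted p = 0.905) with overlapping groups. Mzb1, a chaperone of antibody-secreting cells, was at 0.57 (adjusted p = 0.666). Sdc1, which encodes CD138, did not pass the filter on low counts in enough samples to be tested, with at most 22 counts in a KI B2 sample and at most 421 in a KI MemB sample. Tnfrsf17, which encodes BCMA, did not pass it in enough samples either, with at most 5 and at most 303 counts. The summed level of the list was 1642 to 1946 CPM in KI B2 and 2126 to 2732 CPM in KI MemB, and the part of plasma cells in the immunoglobulin and Jchain values was not tested.

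Of 10 germinal center genes tested, Basp1, a membrane-bound signalling protein, was the call, beside 0.287% of all genes called higher (0.19 to 0.31 CPM in KI B2 and 38.4, 2.60 and 14.02 CPM in KI MemB, log2 fold change 6.21, adjusted p = 0.0394). Without KI MemB replicate 1, Basp1 was at 5.07 and not called (adjusted p = 0.331), and it lost its call in 4 of the 6 such fits. The median of the list was 2.55 (0.04 over all genes), 6 genes lay above and 0 below in all 3 KI MemB samples (7.65% and 7.62% of all genes), and 7 were higher and 1 lower at an unadjusted p under 0.05. Summed, the list was low, at 56.6 to 142.8 CPM in KI B2 and 143.1 to 194 CPM in KI MemB. A gene near 0 in KI B2, such as Basp1, can pass the filter on low counts through its KI MemB samples alone. The median and this split are thus partly set by the filter and are not support for a shift. DESeq2 called 3 higher, Basp1, Plxnb2 and Neil1 (214 of 13246 over all genes), and voom 0. Of the 10 genes, 8 had a higher mean in KI MemB (6906 of 13246 over all genes). Bcl6, also on this list, went the other way without a call, at -2.44 to -0.79 in the fits that left out 1 sample. S1pr2, a confinement receptor of germinal centers, was not tested, with at most 1 count in a KI B2 sample and 96 in a KI MemB sample.

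Of 51 G2/M-phase genes tested, 46 had a higher mean in KI MemB (6906 of the 13246 genes tested), 12 were higher in all 3 samples (7.65% of all genes), and the median log2 fold change was 1.07, beside 0.04 over all genes. By edgeR 1 of these genes was called higher and 0 lower (0.287% and 0.128% of all genes). The call was Ect2, an exchange factor of cytokinesis, at 0.61, 2.96 and 1.07 CPM in KI B2 and at 44.9, 12.3 and 35.3 CPM in KI MemB (log2 fold change 4.31, adjusted p = 0.0462), and it lost the call whichever sample was left out. Top2a, which untangles DNA, was at 37.2, 41.2 and 82.9 CPM in KI B2 and at 218, 109 and 158 CPM in KI MemB (log2 fold change 1.59 ± 0.36, SE, adjusted p = 0.0769). Mki67 was at 132, 88.3 and 270.5 CPM in KI B2 and at 490.2, 290.4 and 408 CPM in KI MemB (log2 fold change 1.28, adjusted p = 0.13). Summed, the G2/M genes were at 1390.1 to 1773 CPM in KI B2 and at 2245 to 2894 CPM in KI MemB, without overlap. DESeq2 called 6 of the G2/M genes, all higher (214 of 13246 over all genes), with Top2a, Mki67 and Ect2 among them, and voom 0. The 43 S-phase genes had 0 calls by edgeR and voom and a median of 0.32, and DESeq2 called 1 higher. At an unadjusted p under 0.05, 4 were higher and 1 lower (695 and 606 of 13246 over all genes).

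Several programs gave 0 calls by edgeR, and voom called 0 in each of them as well. Over all 13246 genes, 695 were higher and 606 lower at an unadjusted p under 0.05, and DESeq2 called 214 higher and 187 lower. The 20 cholesterol synthesis genes had a median log2 fold change of 0.61 and 17 higher means (6906 of 13246 over all genes), with 4 higher and 0 lower at an unadjusted p under 0.05, and Sqle and Hmgcs1 were at 1.03 and 0.82. DESeq2 called 1 of them higher, Nsdhl. The 16 glycolysis genes had a median of 0.60, with 6 higher and 0 lower at an unadjusted p under 0.05, and Pkm was at 1.06. DESeq2 called 3 of them higher, Pkm, Pgk1 and Aldoc. B cell receptor signalling genes (27 tested) had a median of 0.06, with 4 higher and 2 lower at an unadjusted p under 0.05. MHC class II genes (15 tested) had a median of 0.02 and 0 at an unadjusted p under 0.05. Toll-like receptors and adaptors (16 tested) had a median of 0.15, with 1 higher at an unadjusted p under 0.05. The BCL2 family (14 tested) had a median of 0.56, with 1 higher and 1 lower at that p. Interferon-stimulated genes (16 tested) had a median of 0.10, with 0 higher and 2 lower. Immediate early genes (23 tested), which rise when cells are stimulated or handled, had a median of -0.19, with 0 higher and 2 lower. Inhibitory and Fc receptors (18 tested) had a median of 0.10, with 1 higher and 3 lower, and the inhibitory Fc receptor gene Fcgr2b was at 0.30. RGS proteins and G protein subunits (14 tested), which act downstream of receptors such as GPR34, had a median of 0.24, with 1 higher and 0 lower. TGF-beta and IgA switching genes (14 tested) had a median of -0.07, with 3 higher and 1 lower, and the receptor gene Tgfbr2 was at -0.15. In the p53 target list (14 tested) the median was 0.58, with 2 higher and 1 lower. Among these lists DESeq2 called 1 interferon-stimulated gene lower, 1 inhibitory receptor gene higher and 3 lower, and 1 gene of the TGF-beta list in each direction, and in the others 0. A gene that misses the threshold here is not shown to be equal, since edgeR recovered 28 of 100 genes simulated at a log2 difference of 2 and 70 of 100 at 4.

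**Figure D4:**
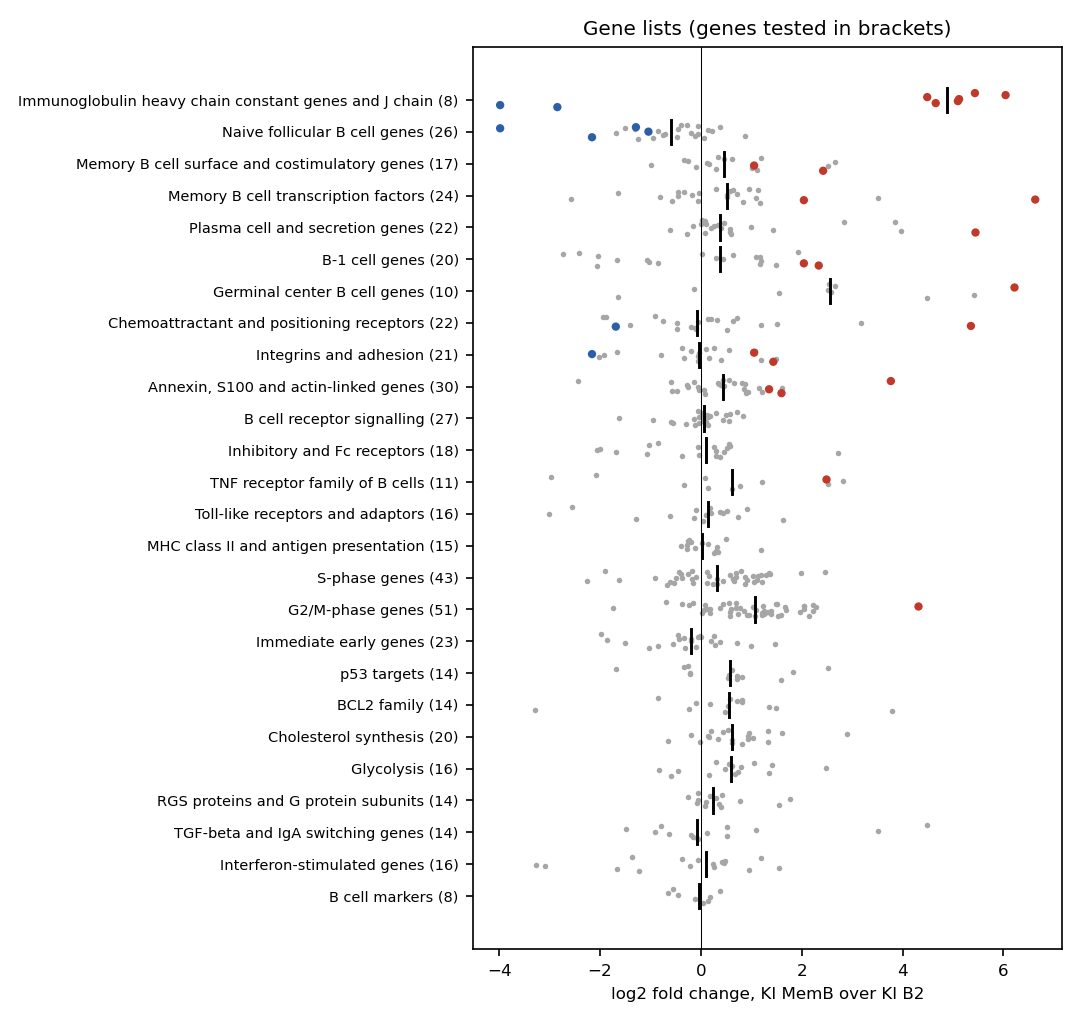
Log2 fold change of KI MemB over KI B2 (horizontal) of the genes tested in each list (vertical, number tested in brackets), 1 point per gene, with called genes in red (higher) or blue (lower) and a black bar at the list's median. The naive follicular list leans left of 0 with a median of -0.59, and the G2/M list leans right with a median of 1.07.

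The largest changes outside the lists were in genes of low level. Parm1, a mucin-like membrane protein, was the most even of them, at 0.23 to 0.29 CPM in KI B2 and 17.8 to 19.5 CPM in KI MemB (log2 fold change 6.09, adjusted p = 0.0159). Bmpr1a, a receptor of bone morphogenetic proteins, was at 0.10 to 0.20 CPM in KI B2 and 8.84 to 19.2 CPM in KI MemB (log2 fold change 6.22, adjusted p = 0.0463). Celsr1, a cadherin of planar cell polarity, was at 0.26 to 0.55 CPM in KI B2 and at 4.88, 74.6 and 10.2 CPM in KI MemB (log2 fold change 6.10, adjusted p = 0.0244), and replicate 2 was again the highest. Without that sample, Celsr1 was at 4.12 and not called (adjusted p = 0.369), and it lost its call in 4 of the 6 such fits. Gm20537, an entry that overlaps Snx14 and Syncrip, was at 0, 0.12 and 0.05 CPM in KI B2 and at 25.9, 0.50 and 24.8 CPM in KI MemB, so that its call rests on 2 of 3 samples (adjusted p = 0.0462).

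Among genes that fell, Edaradd, the adaptor of the ectodysplasin receptor, was at 26.2, 65.7 and 39.1 CPM in KI B2 and at 0.824, 1.41 and 0.815 CPM in KI MemB, 42.9-fold lower (log2 fold change -5.42, adjusted p = 0.00168). Afap1, an actin filament-associated protein, was at 13.8, 28.2 and 15.6 CPM in KI B2 and at 0.34 to 0.60 CPM in KI MemB (log2 fold change -5.39, adjusted p = 0.0261). Wfdc17, a small secreted protein, fell from 24.8 to 30.3 CPM in KI B2 to 0.49 to 2.16 CPM in KI MemB (log2 fold change -4.69, adjusted p = 0.0307). Gm19951 fell by 3.70 on the log2 scale, from 44.1 to 81.2 CPM in KI B2 to 2.44 to 7.05 CPM in KI MemB. Rasgef1b, an exchange factor for Ras family GTPases, and Rnf144a, a ubiquitin ligase, had log2 fold changes of -3.07 and -2.30. Phlpp1, a phosphatase of Akt, stood at 90.7, 100.3 and 112 CPM in KI B2 and at 23.8, 32.5 and 24.2 CPM in KI MemB (log2 fold change -1.91, adjusted p = 0.0261). Lrrk2, a large kinase, was at 303 to 391 CPM in KI B2 and 110.05 to 183 CPM in KI MemB (log2 fold change -1.18). Heg1, a transmembrane protein, was at -1.45.

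A further group of called genes rose, and these are named after their values were seen. St8sia6, a sialyltransferase, was the firmest, at 25.0, 39.2 and 36.2 CPM in KI B2 and at 139, 226 and 149.97 CPM in KI MemB (log2 fold change 2.36, adjusted p = 0.00202). Tppp3, Xkrx, Syne1, Sspn, Scimp, Reep3 and D430019H16Rik had log2 fold changes of 2.51, 2.15, 2.17, 3.39, 3.63, 1.91 and 4.13. Txn1, which encodes the redox protein thioredoxin, was at 38.7 to 58.6 CPM in KI B2 and 158 to 194 CPM in KI MemB. Clic4, Gdi2 and Pik3r5, the last a regulatory subunit of a G protein-activated phosphoinositide kinase, had log2 fold changes of 1.60, 1.11 and 1.54. Ndor1.2, a second entry of a gene listed more than once, was at 0 counts in all KI B2 samples, and its MemB level is at least 110.2-fold higher than a floor of 3 counts in each KI B2 sample would give. Reads of such entries are split by estimation, so that this value is uncertain, and Ndor1.2 lost its call in 5 of the 6 fits that left out 1 sample. Its fitted log2 fold change went from 11.27 to 9.32 without KI MemB replicate 1 (adjusted p = 0.275).

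To ask whether the KI difference between MemB and B2 is that of control mice, all 12 samples were fitted with 4 group means, and CPM in this fit are normalized over all 12. The KI and control contrasts share no samples. In control mice, 40 of 15148 genes tested were called (0.264%). Of the 55 genes called from the 6 KI samples, 44 were also called for KI mice in the 12-sample fit. Among the 55, 50 had the same direction in control mice and 18 were called there as well. Agreement of direction over all genes was not counted, so the 50 have no background to be judged by. The difference between the genotypes was called for 10 genes (0.066%), of which 4 were among the 55. Ighm differed most firmly. It stood at 4341, 4072 and 4252 CPM in Control B2 and at 2688, 2621 and 2014 CPM in Control MemB, with a log2 fold change of -0.79 beside -2.83 in KI mice in this fit, and the difference was -2.04 ± 0.24 (SE, adjusted p = 1.08e-05). Control MemB thus kept more Ighm than KI MemB under the same IgM- gate. Ighd had log2 fold changes of -2.74 in control and -3.97 in KI mice (difference adjusted p = 0.0463). Jchain was at 11.3, 1.94 and 1.63 CPM in Control B2 and at 6.71, 5.57 and 18.0 CPM in Control MemB, with a log2 fold change of 1.03 beside 5.45 in KI mice (difference adjusted p = 0.0463). Of the 12 fits that left out 1 sample, the called difference was lost in 8 for Jchain and in 9 for Ighd. Gm20537 went in opposite directions, with -7.59 in control and 8.07 in KI mice (difference adjusted p = 0.00521).

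For other genes the sizes differed but the difference was not called. Igha had a log2 fold change of 3.68 in control and 6.06 in KI mice (difference 2.37 ± 0.53, SE, adjusted p = 0.293), with Control MemB at 352, 632 and 1078 CPM. Cxcr3 had 2.48 in control and 5.36 in KI mice (difference adjusted p = 0.182), with Control MemB at 26.6, 34.5 and 70.9 CPM. Itga4 had 0.83 and 1.45 (difference adjusted p = 0.366). Cd80 and Bhlhe41 were close in size, with 2.63 and 1.73 in control and 2.44 and 2.05 in KI mice. Their differences were -0.20 ± 0.63 and 0.32 ± 0.34 (SE, adjusted p = 0.987 and 0.887). The IgG genes differed in log2 fold change by 0.28 for Ighg1, 0.28 for Ighg2b, -1.10 for Ighg2c and -0.15 for Ighg3, with adjusted p between 0.579 and 0.994. Gpr34 had a log2 fold change of 2.22 in control mice, from 3.42 to 6.87 CPM in Control B2 to 18.8 to 30.8 CPM in Control MemB, beside 0.53 in KI mice (difference adjusted p = 0.359). A difference that misses the threshold does not show that the genotypes act alike.

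**Figure D5:**
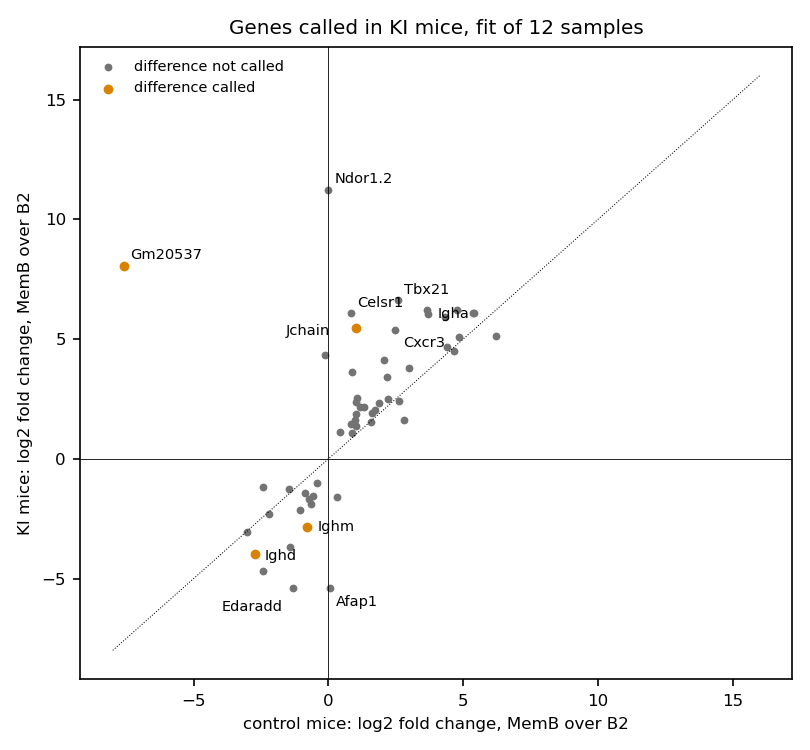
Log2 fold change of MemB over B2 in KI mice (vertical) against control mice (horizontal), from the fit of 12 samples, for the 55 genes called in KI mice. The dotted line marks equal change, and the 4 genes in orange (Ighm, Ighd, Jchain and Gm20537) are those whose difference between genotypes was called.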

How the data were processed

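RNA of sorted PerC cells was harvested with a column kit and amplified before library preparation. No molecular identifiers or strand marking are stated, so amplified reads are not independent molecules. Genes whose spans overlap (31 of the 53 called genes with a position) may share reads, which was not measured. Per the labels and the study's methods, the authors used FastQC 0.12.1, trimmed reads with cutadapt 4.5, aligned them with STAR 2.7.11a to mm39 and estimated counts per gene with RSEM 1.3.3. The deposited values are RSEM expected counts, not normalized. Of the non-zero values in KI samples 32.5% were not whole, and all were rounded. Columns were matched to samples by name, and 0 were left without a sample. Entries without a gene symbol (98 tested, 1 called) were never named.

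Counts were tested with edgeR 4.0.16 in R 4.3.3 (TMM, filterByExpr with its minimum count at 10, quasi-likelihood F test with robust fitting, Benjamini-Hochberg adjustment over all genes tested) on the 6 KI samples. CPM are TMM-normalized. The SE is the log2 fold change divided by the square root of F. Folds are ratios of mean CPM. Counts for 13246 genes were simulated from edgeR's own means and dispersions. On these, edgeR recovered 28 of 100 genes changed by a log2 of 2 and 70 of 100 changed by 4, with 5 false calls, and DESeq2 41, 82 and 58. The simulation follows edgeR's model, so these numbers do not rank the tools. Alternatives were DESeq2 1.42.0, voom of limma 3.58.1, other normalizations and filters, the 12-sample fit, a replicate block, gene classes left out, and each sample left out.

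The members and gene lists were chosen with earlier results of these data known. Named genes were the 15 largest rises and 15 largest falls among called genes without overlap and with at least 10 CPM in the higher group, the 5 smallest p-values in each direction, called or key members of the lists, Gpr34, Ighm and Ighd, and genes whose difference between genotypes was called; some genes under this rule are not reported here. Positions are those of GENCODE M39 on GRCm39, which is mm39.

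Same-numbered samples were checked for pairing. Their deviations from the group means correlated at 0.0023, 0.0229 and 0.0048, and no source used here says that a number marks a mouse, so samples were not paired, although replicate 3 differed in sex from replicates 1 and 2 in every group. No pair of replicates was alike within counting noise.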

Additional observations from a re-analysis of the deposited data

Results flagged for a closer look

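The MemB-B2 difference itself differed between KI and control mice for 10 genes, tested as an interaction in the 12-sample edgeR fit. The values are the log2 fold change in KI mice minus that in control mice. Ighm was at -2.04 (adjusted p = 1.08e-05) and Gm20537 at 15.66 (adjusted p = 0.00521), and both kept the call in all 12 fits that left out 1 sample. Gm6297 was at -8.14 (adjusted p = 0.00827). Dnase1l3, which encodes a secreted DNase, was at -3.69 (adjusted p = 0.0101). It stood at 47.2, 42.6 and 89.2 CPM in KI B2 and at 5.69, 11.8 and 16.1 CPM in KI MemB, while Control B2 held 76.8, 116 and 29.6 and Control MemB 271, 156 and 112 CPM. Gm6297 and Dnase1l3 each lost the call in 1 of the 12 fits. The variable segment Ighv11.2 was at -5.48 (adjusted p = 0.0151) and lost it in 4.

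The remaining genes had an adjusted p of 0.0463, next to the threshold. Ighd was at -1.23 and Gm37376, an entry that overlaps Malat1, at -1.03, and both lost the call in 9 of 12 fits. Jchain was at 4.43 and Cma1, a mast cell protease, at -9.45, and both lost it in 8. Cma1 stood at 15.8 CPM in KI B2 replicate 3 and at 36.6 and 118 CPM in 2 of the Control MemB samples, and below 1 CPM in the other 9 samples. The transcription factor gene Myb was at -5.04 and lost the call in 10.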

How the results depend on the processing

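The 55 genes called (38 higher, 17 lower) kept their direction in every alternative run. These runs reuse the same KI samples, so the kept direction is not independent support. Without a filter on low counts 177 genes were called (113 higher, 64 lower), and these held all 55. DESeq2 called 401 (214 higher, 187 lower), with 54 of the 55. It had 58 false calls on counts simulated from edgeR's own fit, which do not measure its error in these data. Voom called 20 (17 higher, 3 lower), and a non-robust edgeR fit called 36 (8 lower), all among the 55. The cause of these differences was not tested. Leaving out 1 sample gave 15 to 47 calls, 12 to 35 of them higher and 3 to 12 lower. There were 24, 15 and 28 calls without KI B2 replicates 1, 2 and 3, and 26 and 29 without KI MemB replicates 1 and 2. Among called genes, beside those whose lower value the report gives, fold changes grew by over 1.5 times for Gm20537 (9.08) and Ect2 (5.19) without KI B2 replicate 2, Ighg2b (5.78) and Sspn (4.67) without KI B2 replicate 1, Myo1f (4.62) without KI B2 replicate 3, and Wfdc17 (-5.77) and Rasgef1b (-3.84) without KI MemB replicate 1 (log2 values). Values of genes not called moved further in places. Leaving out 1 sample gave -0.66 to 2.79 for Prdm1, -0.19 to 1.05 for Pdcd1lg2, 1.98 to 4.604 for Fas, -4.37 to -1.42 for Cd5 and 1.14 to 2.33 for Itgam. The range was 2.99 to 4.36 for Runx2, -2.44 to -0.79 for Bcl6 and 0.93 to 1.77 for Zbtb32. The replicate block, for numbers that did not pair the samples, gave 69 calls (44 higher, 25 lower), 53 of them shared, and not every sample correlated best with its own number. With the block, Fcer2a, Top2a, Mki67 and Dnase1l3 gained the call (adjusted p = 0.00758, 0.0219, 0.00498 and 0.0308), and Basp1 and Gm20537 lost it (0.0525 and 0.103). Replicate 3 was the sample with many Xist counts in all groups, so that number and sex go together. For the difference between genotypes, DESeq2 called 208 genes against 10, with 9 of the 10, and the replicate block called 12, with 8 of the 10. Leaving out 1 sample gave 5 to 10, of which 4 to 8 were among the 10. There were 5 without Control B2 replicate 2 and 6 without Control B2 replicate 3 or KI B2 replicate 3. Over called genes and alternatives, 661 of 927 pairs kept the call and 0 reversed. At this depth and spread, edgeR recovered 28 of 100 genes simulated at a log2 difference of 2.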
